A study of Mus musculus with 4 samples.

Results

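The genes described here are the replication-dependent histone genes of the clusters Hist1, Hist2, Hist3 and Hist4. They were taken by name, as single-locus rows of the deposited table with a histone cluster name among the names of the row, and 63 such loci were present. A level of at least 10 normalised reads in at least 2 libraries was reached by 56 of these 63, among 13764 loci of any kind that passed the same filter. Of the 56, 4 were loci of the linker histone H1, 12 of H2A, 15 of H2B, 12 of H3 and 12 of H4. The H2B loci include the pseudogene Hist3h2bb-ps. A further 1 row merged an H1 gene with an H2B gene (Hist1h1e+Hist1h2be). By position, 44 lay in Hist1 on chromosome 13, 8 in Hist2 on chromosome 3, 3 in Hist3 on chromosome 11 and 1 in Hist4 on chromosome 6, in the build mm9.

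RNA was sequenced from Lin-Kit+ cells of the bone marrow of C57BL/6 mice, a cell fraction depleted of mature blood lineages that holds hematopoietic stem and progenitor cells. The groups were wild type (WT) and Asxl1-/- (KO), with 2 libraries each. The labels describe neither the construction of the KO allele nor the age of the mice. No label says that the libraries of a group came from separate animals, but sex-linked transcripts, given below, show more than 1 animal per group. The p-values measure only the spread between these libraries, and that spread includes a difference in sex. ASXL1 is a chromatin regulator that acts with Polycomb proteins, and the series relates differences in expression to changes in the binding of ASXL1 and of cohesin, the ring that holds sister chromatids.

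Core histones H2A, H2B, H3 and H4 form the protein spool of the nucleosome, and H1 binds the DNA that links nucleosomes. Their replication-dependent genes have no introns and are transcribed mainly in S phase, when new DNA needs new nucleosomes. Most of their mRNAs end in a conserved stem-loop that is bound by the protein SLBP, after cutting by a complex holding the U7 small RNA, in place of a poly(A) tail. Some of these genes also give polyadenylated mRNAs, above all in cells that stop dividing. The labels do not say whether the libraries were selected for poly(A), and a selection would keep only the polyadenylated share of these mRNAs.

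The stem-loops of 7 members are printed here because the levels and differences described below turn on these genes or because they stand for the stem-loop forms found. They come from the GENCODE release M21 transcripts (GRCm38), matched by gene name, 5′ to 3′ as DNA letters. Capitals mark the match to the histone stem-loop consensus, which starts with GG, ends with CC, has CTT, a further T and then AG at fixed places within and any base elsewhere, searched on the transcript strand, with 5 bases on either side.
Hist1h1c: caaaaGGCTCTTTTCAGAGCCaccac
Hist3h2ba: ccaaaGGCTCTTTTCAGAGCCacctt
Hist1h2bg: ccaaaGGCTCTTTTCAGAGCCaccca
Hist1h2bk: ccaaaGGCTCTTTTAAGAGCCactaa
Hist1h4i: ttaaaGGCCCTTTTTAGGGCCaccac
Hist1h4j: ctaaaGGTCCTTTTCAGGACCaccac
Hist1h4a: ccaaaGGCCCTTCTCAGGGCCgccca

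Of the 56 members, 51 were matched to an annotated transcript, and 34 of these held the motif, in 8 distinct forms. The motif was present in 0.274% of 58725 other protein-coding transcripts. The form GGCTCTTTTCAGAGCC was shared by 18 members, of which 2 coded for H1, 6 for H2A, 7 for H2B and 3 for H3. None of the 9 H4 members with a motif had that form. These 9 carried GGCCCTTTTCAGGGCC (4 members), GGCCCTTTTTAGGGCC (2), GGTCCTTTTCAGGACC (2) or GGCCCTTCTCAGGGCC (1). The annotated transcripts of the other 17 matched members held no match to these letters, which says nothing of the mRNA made in these cells.

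The libraries held 46597871 and 49764454 reads in WT and 83586916 and 76688583 in KO, so a read counted for more on the normalised scale in WT. The deleted gene checked the labels. Asxl1 had 9742 and 9472 normalised reads in WT and 146 and 134 in KO, a log2 fold change of -6.09 ± 0.09 (SE, limma adjusted p = 8.89e-06). Of the loci tested, 20.9% were called at an adjusted p of 0.05, with 11.9% higher and 8.97% lower in KO. Fold changes below are log2 of KO over WT on the log2(value + 1) scale with their SE, n is 2 libraries per group, and adjusted p-values are from limma over all 13764 loci. Replicate 1 of each genotype had high Xist (103010 and 89290 against 2123 and 147) and replicate 2 had the Y-linked transcripts, so the replicate pairs differ in sex and the libraries of a genotype came from more than 1 animal. Values within pairs are given where a result differs between them. Progenitor markers were present, with a sum of 787453 and 729319 in WT against 681733 and 588119 in KO, 3 of 9 called lower in KO (Cd34, Cd27 and Flt3) and none at 0. Mature neutrophil markers, none at 0 either, summed to 1040808 and 1162232 in WT and 2095447 and 1955812 in KO, with 8 of 9 called higher.

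In KO progenitors the linker histone gene Hist1h1c was higher and the H2B gene Hist3h2ba was lower, and no other histone cluster gene passed the test. This is 2 of 56 members, or 3.57%, against the 20.9% called over all loci. In each direction 1 member, or 1.79%, was called, against 11.9% higher and 8.97% lower over all loci. The share called also differed with the level. Among loci with a mean under 100 normalised reads, 1 of 40 members (2.50%) and 8.10% of all 2741 loci were called. Between 100 and 1000, 0 of 14 members (1 at an unadjusted p under 0.05) and 21.2% of 3112 loci were called. From 1000 upwards, 1 of 2 members and 25.2% of 7911 loci were called. The median SE was 0.34 over members and 0.10 over all loci. The 95% interval of the fold change lay within 2-fold in either direction for 20 of the 56 members, and reached past 2-fold for the others. It lay within 2-fold for 10033 of all 13764 loci. With a mean under 100 this held for 7 of 40 members and 296 of 2741 loci. Between 100 and 1000 it held for 11 of 14 members and 2161 of 3112 loci.

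The median log2 fold change was 0.15 over members and -0.01 over all loci, and 35 of 56 members (62.5%) lay above 0 against 49.1% of all loci. Both KO libraries lay above both WT libraries for 17 members (30.4%) and below for 11 (19.6%), against 32.5% and 33.6% of all loci. In either direction this is 28 of 56 members, against 66.1% of all loci. The positive median did not hold in both pairs: it was -0.06 in replicate pair 1 and 0.32 in replicate pair 2, and -0.04 without WT replicate 2 against 0.34 without WT replicate 1. By the unadjusted p from limma, 5 members were below 0.05. Hist1h1c and Hist3h2ba, and no other member, were also the calls of limma-voom, edgeR (TMM or RLE scaling) and DESeq2.

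**Figure D1:**
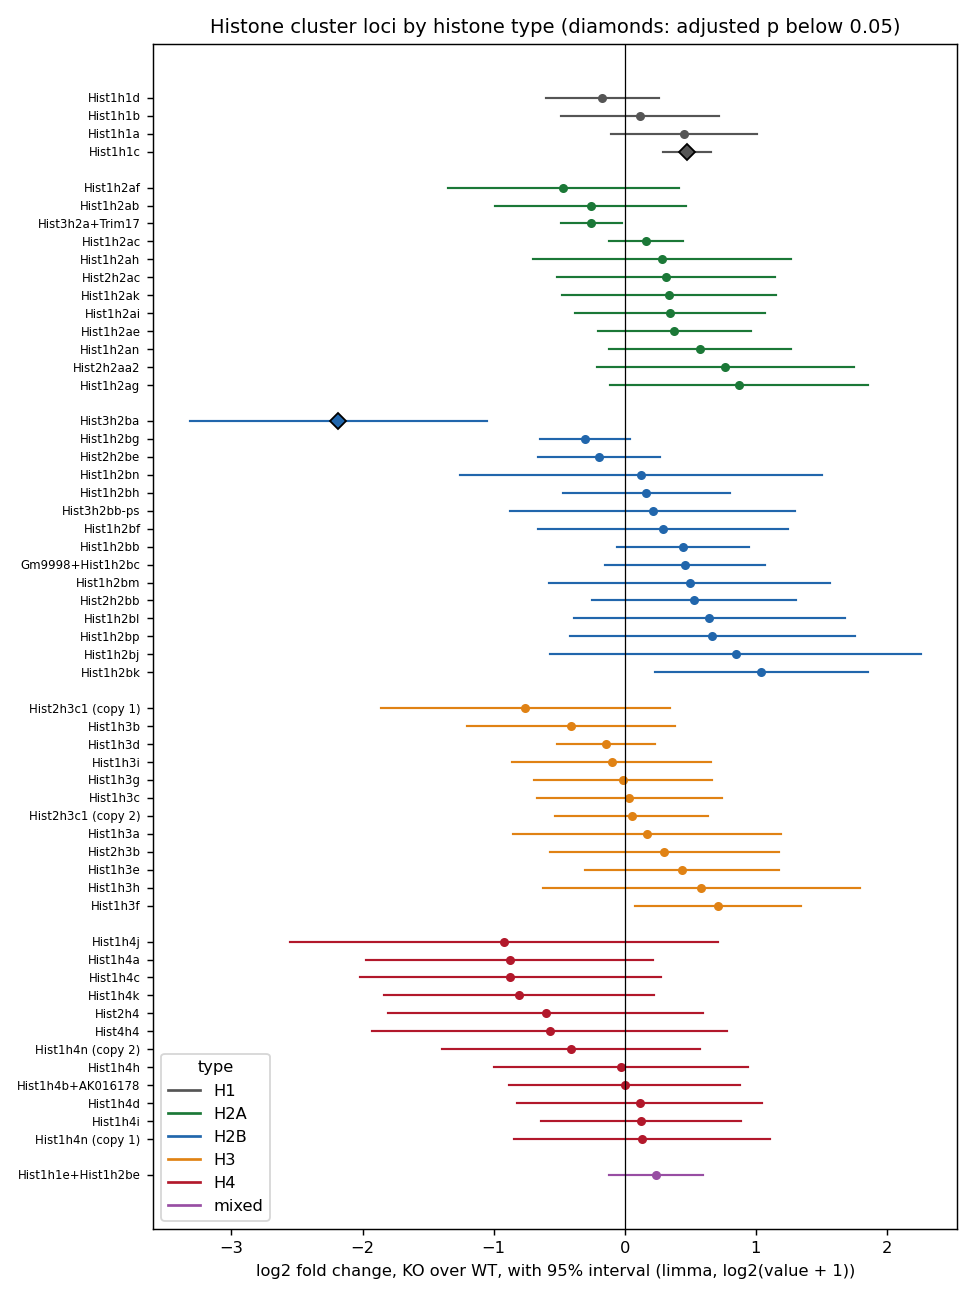
Log2 fold change of KO over WT for each of the 56 histone cluster loci, grouped by histone type, with the 95% interval from limma as a bar. Hist1h1c and Hist3h2ba are the called loci; the H4 points lie mostly left of 0 and the H2B points mostly right of 0, with wide intervals.

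Hist1h1c, which codes for a linker histone, was the member with the highest level (chromosome 13, 23830676 to 23832236, mm9). It had 2272 and 2343 normalised reads in WT and 3043 and 3385 in KO. Both KO libraries lay above both WT libraries. The difference was 0.48 ± 0.08 on the log2 scale, or 1.39-fold, with a 95% interval of 0.29 to 0.66 (limma adjusted p = 0.0107). Without WT replicate 1 the adjusted p from limma was 0.0703 and without WT replicate 2 it was 0.0511, with log2 fold changes of 0.45 and 0.50. The summed markers of mature neutrophils, erythroid cells and megakaryocytes were higher in KO beside it. The erythroid markers summed to 65386 and 71125 in WT, and to 116922 and 132181 in KO, with 4 of 8 markers called higher and none at 0. The megakaryocyte markers summed to 9255 and 9369 in WT, and to 15697 and 13960 in KO, with 2 of 6 called higher and none at 0. Those of monocytes and macrophages summed to 11430 and 9790 in WT and 16896 and 12681 in KO, with 2 of 7 called higher and 3 lower. Over all loci 11.9% were called higher and 8.97% lower. The part of these cells in the result was not tested. In these bulk samples, a change in the share of a cell type and a change in RNA per cell cannot be told apart.

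The other H1 members, given to complete the type and outside the naming rule, had no call and did not share a direction. Hist1h1a had 114 and 110 normalised reads in WT and 177 and 133 in KO, with both KO libraries above WT (0.45 ± 0.23, limma adjusted p = 0.204). Hist1h1d had 218 and 198 in WT and 193 and 175 in KO, with both KO libraries below WT (-0.17 ± 0.18, limma adjusted p = 0.515). Hist1h1b overlapped between the groups, at 153 and 107 in WT and 147 and 131 in KO. The row that merges Hist1h1e with Hist1h2be had 289 and 287 in WT and 319 and 361 in KO (0.24 ± 0.15), and its reads cannot be divided between the linker and the core histone. Summed over the 4 H1 loci, the WT libraries reached 2756 and 2758 and the KO libraries 3561 and 3824, a ratio of 1.34 that rests mostly on Hist1h1c.

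Hist3h2ba, an H2B gene of the small Hist3 cluster (chromosome 11, 58762413 to 58763032, mm9), had the lowest fold change of all members. It had 33.7 and 53.7 normalised reads in WT and 6.82 and 10.7 in KO, which are 26, 44, 9 and 13 reads. Both KO libraries lay below both WT libraries. The difference was -2.18 ± 0.46 on the log2 scale, with a 95% interval of -3.32 to -1.05 (limma adjusted p = 0.0250). With log2(value + 10) in place of log2(value + 1) it was -1.498. The call was lost without WT replicate 1 (limma adjusted p = 0.0690) and without WT replicate 2 (limma adjusted p = 0.136), with log2 fold changes of -2.51 and -1.86. Markers of the B lineage were lower in KO beside it, with sums of 73457 and 72474 in WT against 56574 and 39569 in KO, 3 of 7 called lower and none at 0. Of the mast cell and basophil markers 4 of 5 were called lower and none was at 0. Their sums overlapped, at 17044 and 16795 in WT and 17281 and 14887 in KO. The T and NK markers summed to 7584 and 6759 in WT and 6541 and 5544 in KO, with 1 of 7 called lower. Those of stroma and endothelium summed to 5335 and 5677 in WT and 4438 and 4371 in KO, with 2 of 6 called lower. Over all loci 8.97% were called lower. The part of these cells in the result, and that of the cells marked as higher in KO, was not tested.

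The other Hist3 loci are neighbours of Hist3h2ba. Hist3h2a, the H2A gene, lies in a row that merges it with BC030470, AK009977 and Trim17, a ubiquitin ligase gene, so that its own level is not known. That row had 929 and 920 normalised reads in WT and 800 and 750 in KO. Both KO libraries were below WT, and the difference of -0.25 ± 0.10 missed the threshold (limma adjusted p = 0.112). The pseudogene Hist3h2bb-ps had 11.7 and 14.6 in WT and 16.7 and 14.0 in KO, which overlap. Summed over Hist3, the WT libraries reached 974 and 988 and the KO libraries 824 and 775, a ratio of 0.815 carried mostly by the merged row.

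**Figure D2:**
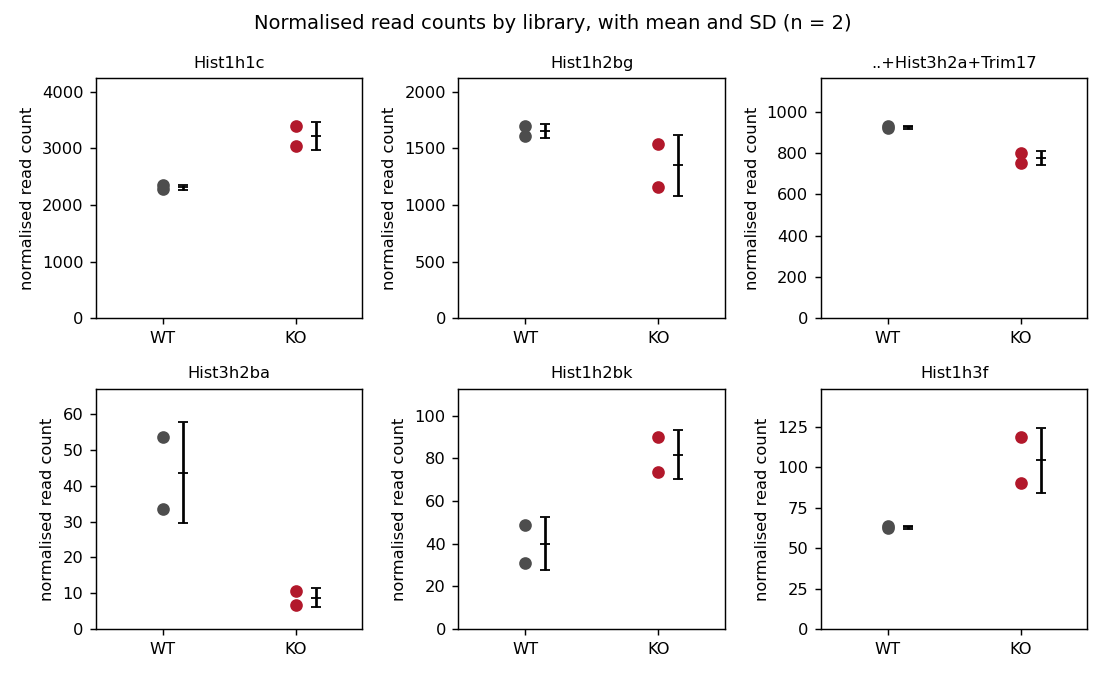
Normalised read count (linear axes) in each of the 4 libraries, WT in grey and KO in red, with mean and SD. Shown are Hist1h1c, Hist1h2bg, the merged row of Hist3h2a, Hist3h2ba, Hist1h2bk and Hist1h3f. Hist1h2bk and Hist1h3f were chosen after their values were seen. Both KO libraries lie above WT for Hist1h1c, Hist1h2bk and Hist1h3f and below WT for the others, and only Hist1h1c and Hist3h2ba were called.

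The promoters of both called genes are printed because each carries motifs known from histone genes. The windows are the 150 bases before the annotated start, from RefSeq (GRCm38.p6), on the plus strand. Capitals mark CCAAT, the box bound by the factor NF-Y, TATAAA, the TATA box, and AAACACA, an element of H1 promoters. Both strands were searched, so that the reverse complement of each is also in capitals.
Hist1h1c, chr13:23738657-23738806: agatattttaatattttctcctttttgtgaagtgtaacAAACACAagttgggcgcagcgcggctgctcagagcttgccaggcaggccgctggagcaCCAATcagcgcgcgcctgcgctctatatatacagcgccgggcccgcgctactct
Hist3h2ba, chr11:58948761-58948910: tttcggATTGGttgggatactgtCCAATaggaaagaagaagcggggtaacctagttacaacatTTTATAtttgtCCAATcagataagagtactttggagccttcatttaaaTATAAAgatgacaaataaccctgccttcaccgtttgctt

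In these windows Hist1h1c held 1 CCAAT box, 1 AAACACA element and no TATAAA, and Hist3h2ba held 3 CCAAT boxes and 2 TATAAA on either strand. Promoters of 45 members were matched by name, and the whole window of 250 bases before to 50 after the start was searched on both strands. CCAAT was present in 39 of the 45 (86.7%), against 37.4% of 32851 promoters. It was in all 36 matched promoters of types other than H4 and in 3 of 9 H4 promoters. TATAAA was in 26 of the 45 (57.8%), against 13.6% of all promoters. ATTTGCAT, the octamer bound by OCT1, was in 11 members, 6 of H2A and 5 of H2B, and in 1.74% of all promoters. AAACACA was in 5 members, 3 of them H1, and in 7.18% of all promoters. A match is a description of the letters and shows no binding.

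H2A had no called member among 12 by limma (1 at an unadjusted p under 0.05), with a median log2 fold change of 0.33 and a range from -0.47 to 0.87. Of the 12, 9 lay above 0. Both KO libraries lay above both WT libraries for 6 and below for 1, against 32.5% and 33.6% of all loci. Hist1h2ac, the H2A gene of highest level that stands in a row of its own, had 793 and 905 normalised reads in WT and 900 and 998 in KO, which overlap (0.16 ± 0.11, limma adjusted p = 0.346). Hist2h2aa2, the highest H2A gene of Hist2, had 55.7 and 70.7 in WT and 73.5 and 157 in KO. Both KO libraries were above WT, but KO replicate 1 only narrowly, and the difference was 0.77 ± 0.40 (limma adjusted p = 0.219). It was called when KO replicate 1 was left out (1.31, limma adjusted p = 0.0303). The annotated transcript of Hist2h2aa2 shares 100% of its 50-base words with transcripts of other genes, so its level depends on how such reads were counted. The largest H2A value was that of Hist1h2ag, a gene chosen after its values were seen, with 24.6 and 19.5 in WT and 31.8 and 52.8 in KO (0.87 ± 0.40, limma adjusted p = 0.169). Summed over the 12 loci, H2A stood at 2266 and 2478 in WT and 2342 and 2558 in KO, which overlap. These sums include the merged row of Hist3h2a and Trim17, at 929 and 920 in WT and 800 and 750 in KO. The part of that row that comes from Hist3h2a is not known, so the sums are not of H2A reads alone. The merged row is also the 1 H2A member with both KO libraries below WT, and the 1 under the unadjusted threshold.

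H2B had the most members, 15, and a median log2 fold change of 0.45 with 12 above 0. Hist3h2ba was the only call. Hist1h2bg had the second-highest level of all members, with 1610 and 1694 normalised reads in WT and 1160 and 1539 in KO. Both KO libraries were below WT, KO replicate 1 farther than KO replicate 2, and the difference was -0.31 ± 0.14 (limma adjusted p = 0.169). Without KO replicate 2 it was -0.51 and called (limma adjusted p = 0.0112). Hist2h2be had 561 and 535 in WT and 573 and 398 in KO, so that the KO libraries lay on either side of WT (-0.20 ± 0.19). It turned to 0.06 without KO replicate 2. Hist1h2bk, chosen after its values were seen as the member with the highest fold change, had 31.1 and 48.8 in WT and 73.5 and 89.9 in KO (1.04 ± 0.33, limma adjusted p = 0.0749). Both KO libraries lay above both WT libraries, and 74.2% of the 50-base words of its transcript are shared with transcripts of other genes. The H2B loci together reached 3113 and 2980 in WT, then 2901 and 3007 in KO. The sum did not follow the median, since Hist1h2bg, which lay lower in KO, held much of the reads while most other H2B genes lay above 0.

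H3 had no called member among 12 by limma (1 at an unadjusted p under 0.05), and its median log2 fold change was 0.04 with a range from -0.76 to 0.71. With upper-quartile scaling that median was -0.0084. It was -0.21 in replicate pair 1 and 0.29 in replicate pair 2, and it ran from -0.16 without WT replicate 2 to 0.27 without WT replicate 1. Hist1h3d, the H3 gene of highest level, had 291 and 290 normalised reads in WT and 249 and 278 in KO. Both KO libraries lay below WT, and the difference was -0.15 ± 0.15 (limma adjusted p = 0.528). The highest H3 locus of Hist2 was the second of the loci named Hist2h3c1, with 132 and 118 in WT and 151 and 111 in KO, which overlap (0.05 ± 0.24). Hist1h3f, chosen after its values were seen, had 63.5 and 62.2 in WT and 90.2 and 119 in KO, with both KO libraries above WT (0.71 ± 0.26, limma adjusted p = 0.102). Summed over the 12 loci, H3 reached 1063 and 883 in the WT libraries and 966 and 1048 in the KO libraries.

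**Figure D3:**
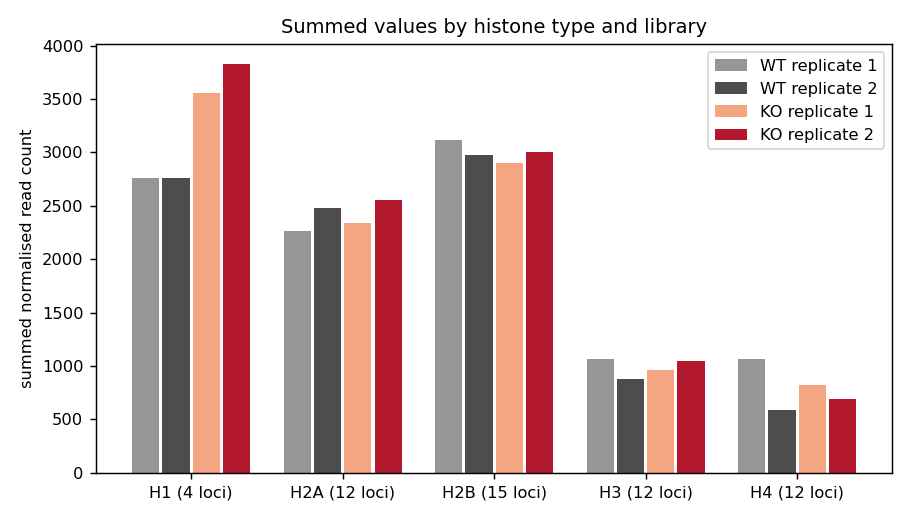
Summed normalised read count of each histone type in each library, as bars from 0, with the number of loci on the axis. H1 is higher in both KO libraries than in either WT library, and H4 is highest in WT replicate 1. Hist1h1c holds most of the H1 sum and Hist1h4i much of the H4 sum, and the H2A sum includes the merged row of Hist3h2a.

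The H4 genes code for the histone that pairs with H3, and their values turned on 1 WT library. None of the 12 was called by limma and 0 had an unadjusted p under 0.05, the median log2 fold change was -0.49, and 9 lay below 0. No H4 locus had both KO libraries above WT, against 32.5% of all loci. Both lay below WT in 4 of 12, against 33.6% of all loci. The 2 WT libraries differed among themselves: WT replicate 2 lay below WT replicate 1 in 12 of 12 H4 loci, with a median log2 ratio of -0.77. The same ratio was -0.33 for H3 (11 of 12 loci below), 0.05 for H2A (6 of 12), 0.03 for H2B (7 of 15) and 0.01 over all loci. KO replicate 2 lay below KO replicate 1 in 6 of 12 H4 loci, with a median of -0.05.

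The H4 median therefore depended on which WT library was used. It was -0.70 in replicate pair 1 and 0.03 in replicate pair 2, and -0.07 without WT replicate 1 against -0.79 without WT replicate 2. Hist1h4i, the H4 gene of highest level, had 536 and 285 normalised reads in WT and 492 and 370 in KO, so that both KO libraries lay between the WT libraries (0.12 ± 0.31, limma adjusted p = 0.804). It turned to -0.33 without WT replicate 2 and to -0.08 without KO replicate 1. Hist4h4, the single gene of its cluster, had 49.2 and 23.2 in WT and 15.2 and 33.0 in KO, which overlap (-0.57 ± 0.55). Its difference was -1.64 in replicate pair 1 and 0.49 in replicate pair 2. Hist1h4j, chosen after its values were seen as the H4 gene with the lowest fold change, had 33.7 and 15.9 in WT and 20.5 and 6.60 in KO, also with overlap (-0.92 ± 0.67). For H4 the sums were 1062 and 590 in WT, and 822 and 690 in KO, and Hist1h4i alone held much of each sum.

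Among small RNAs that carry no poly(A) tail, Rpph1, named after its values were seen, also stood high in WT replicate 1. This RNA of ribonuclease P had 278 normalised reads in WT replicate 1, 43.9 in WT replicate 2, and 31.1 and 26.4 in KO. The 7 listed RNAs that were found summed to 479 and 249 in WT and 221 and 223 in KO. Without Rpph1 the other 6 summed to 201 and 205 in WT and 189 and 196 in KO, so the high sum of WT replicate 1 rests on Rpph1. None of the 4 that were tested was called by limma (0 at an unadjusted p under 0.05), and DESeq2 called 1. The relation of Rpph1 to the H4 values was not tested.

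**Figure D4:**
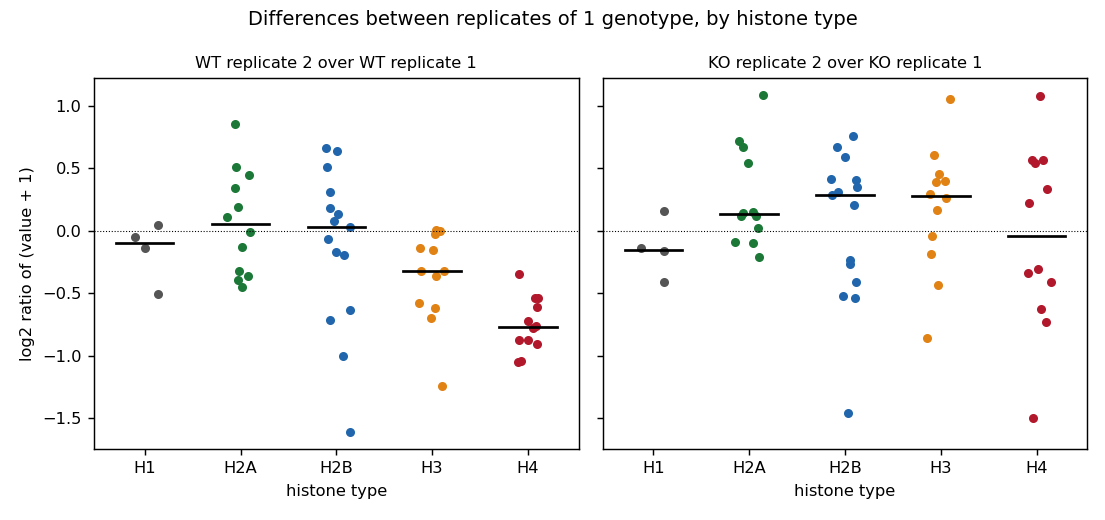
Log2 ratio of replicate 2 over replicate 1 within WT and within KO for each member, by histone type. In WT all 12 H4 points and 11 of 12 H3 points lie below 0, and in KO the H4 points lie on both sides of 0.

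By cluster, Hist1 had a median log2 fold change of 0.16 over 44 loci, with Hist1h1c the only call, and a sum of 8619 and 8095 in WT and 9138 and 9831 in KO. That median turned sign between replicate pair 1 (-0.09) and replicate pair 2 (0.37), and it was -0.04 without WT replicate 2 and 0.37 without WT replicate 1. Hist2 had a median of 0.18 over 8 loci with no call, and its sum of 908 and 870 in WT and 935 and 849 in KO overlapped. Hist3 had a median of -0.25 over 3 loci with 1 called lower. That median is the value of the merged row of Hist3h2a, and it was -0.99 without rows that merge other names. For the calls in these clusters, 11.9% of all loci were called higher and 8.97% lower. Over all 56 members the WT libraries summed to 10550 and 9975 and the KO libraries to 10912 and 11488, a ratio of 1.09. Between the first and last histone gene of Hist1 stood 7 tested loci with no histone name. Of these 7, 2 were called, against 20.9% of all loci. No tested locus of that kind stood in Hist2 or Hist3. Prss16, a thymic serine protease gene, had 552 and 550 in WT and 960 and 1056 in KO (0.87 ± 0.11, limma adjusted p = 0.00517). Zfp322a, a zinc finger gene, had 2520 and 2536 in WT and 1517 and 2043 in KO (-0.52 ± 0.14, limma adjusted p = 0.0480), and lost the call under 6 alternatives, with a limma adjusted p of 0.161 without WT replicate 1 and 0.153 without WT replicate 2. The neighbours thus lay on both sides of 0, and the histone genes among them were mostly not called.

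The levels of the members ranged over more than their differences between groups. Most stood low: the median level was 56.2 normalised reads, with the lowest at 12.3 and the highest at 2761. Per kilobase of locus, Hist1h2bg stood highest at 2440, ahead of Hist1h1c at 1768, Hist1h4i at 784 and Hist1h2ac at 361. This scale uses the width of the locus, which can differ from the annotated transcript length and so limits comparison between genes. The width was 1726 bases against a transcript of 621 for Hist1h2bp, at 13.4 per kilobase, and 312 against 2863 for Hist4h4. The high Hist1h2bg and Hist1h1c and the low Hist3h2ba share 1 stem-loop form, as printed above.

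The annotated transcript went on past the stem-loop by different lengths. Among members in rows of their own, 15 had at most 100 bases after it, with a median level of 105 normalised reads per kilobase and a range from 13.4 to 272. Another 17 had more than 100 bases after it, with a median of 159 and a range from 35.5 to 2440. A further 16 had no match in the transcript, with a median of 108 and a range from 30.6 to 276. Hist1h1c has 840 bases after its stem-loop and 2 poly(A) signals in them, Hist1h4i 330 bases with 2 signals, Hist3h2ba 169 bases with 1 signal and Hist1h2bg 155 bases with none. The ranges overlap widely, and the 4 loci above the upper end of the last range, named above, all had more than 100 bases after the stem-loop. Gene models limit this comparison, since the width of 24 loci in the table equals the coding length. Their median level was 37.7 normalised reads against 85.8 for the other 32, which include the merged rows. These medians are not per kilobase, so narrower loci count for less in them, and levels per kilobase were not compared between these groups.

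**Figure D5:**
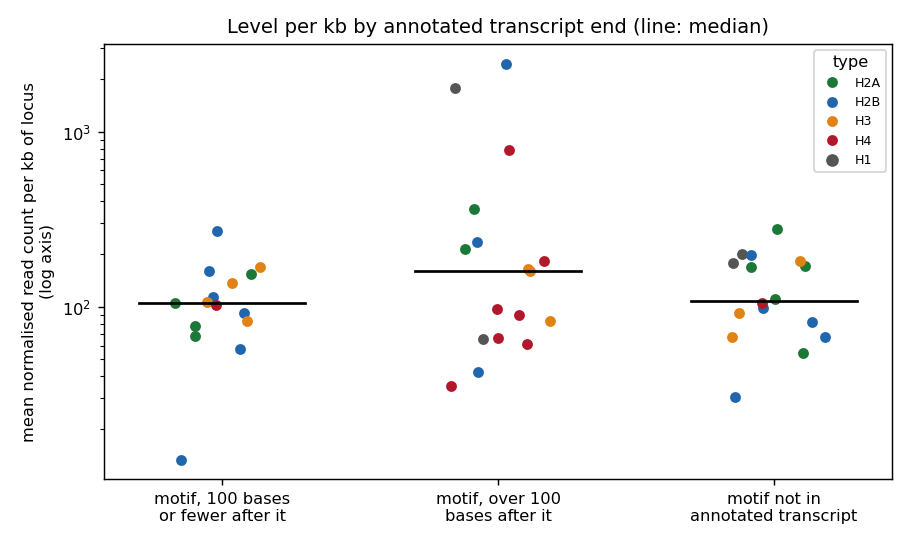
Mean level per kilobase of locus (log axis) of members in rows of their own, grouped by the length of annotated transcript after the stem-loop, 1 point per locus. The 3 groups overlap, and the 4 highest points are all in the group with more than 100 bases after the stem-loop.

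Likeness between the genes also limits single values. Of the 51 matched members, 48 shared at least 1 word of 50 bases with a transcript of another gene and 23 shared over 50% of their words, with a median of 49.3%. The labels name neither the read length nor how reads with several matches were handled. For the called genes the share was 8.54% in Hist1h1c and 22.1% in Hist3h2ba.

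Of 49 genes that transcribe, process or degrade histone mRNA, 10 (20.4%) were called, against 20.9% of all loci. Of the 16 factors of histone gene transcription, 2 were called higher and 1 lower, with a median log2 fold change of 0.01. Cdk2, the kinase that acts with cyclin E to start S phase, stood at 0.21 ± 0.05 (limma adjusted p = 0.0272), E2f2, an E2F transcription factor, at 0.32 ± 0.07 (limma adjusted p = 0.0287), and Nfya, a subunit of the CCAAT factor NF-Y, at -0.26 ± 0.07 (limma adjusted p = 0.0447). Npat, the coactivator that gathers at histone clusters, which was named for its role and not by the rule, was at 4653 and 4840 in WT and 4584 and 4763 in KO (-0.02 ± 0.06). The main coactivator thus overlapped between the groups, and the 3 calls lie in both directions. Each of the 3 lost its call without WT replicate 1 (limma adjusted p of 0.0769 to 0.148) and without WT replicate 2 (0.145 to 0.198). Nfya was also lost without KO replicate 1 (limma adjusted p = 0.0632) and without the level filter (0.0549), and Cdk2 with upper-quartile scaling (0.0588).

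Of 17 genes of histone mRNA 3′ processing, none was called higher and 4 lower, with a median of -0.11, where 11.9% of all loci were higher and 8.97% lower. The list is short, and no test of its share was made. These were Ncbp2, the small subunit of the cap-binding complex (-0.43 ± 0.06, limma adjusted p = 0.00645), the shared Sm proteins Snrpe (-0.26 ± 0.05) and Snrpd3 (-0.21 ± 0.06), and Eri1, an exonuclease that trims histone mRNA ends (-0.24 ± 0.05). Slbp, which binds the stem-loops printed above and was likewise named for its role, had 14134 and 14942 normalised reads in WT and 14037 and 15110 in KO, which overlap. Ncbp2 and the Sm proteins serve many other RNAs. Without WT replicate 2 all 4 calls were lost (limma adjusted p of 0.0524 to 0.198), and without WT replicate 1 only that of Ncbp2 was kept. The call of Snrpd3 was also lost with limma-voom (adjusted p = 0.0525), with edgeR under TMM (0.0670) or RLE scaling (0.0703), without the level filter (0.0603) and without KO replicate 1 (0.0861).

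The shares in the next lists likewise stand against 11.9% of all loci higher and 8.97% lower. Of 16 genes of histone mRNA decay, 1 was called higher, the row Etohd2+Zcchc6 that holds a terminal uridylyltransferase gene (0.40 ± 0.05, limma adjusted p = 0.00473). In the same list 2 were lower, Dcp2, the decapping enzyme (-0.39 ± 0.06), and Lsm3 (-0.24 ± 0.06), a subunit of the ring that binds uridylated ends. Of 16 histone chaperone genes, 2 were lower, Npm1 (-0.22 ± 0.04) and Nap1l1 (-0.19 ± 0.04), and none was higher. Without WT replicate 1 Dcp2, Lsm3, Npm1 and Nap1l1 lost their calls (limma adjusted p of 0.0761 to 0.169), and without WT replicate 2 the last 3 did (0.145 to 0.210). Lsm3 was also lost with edgeR under TMM (adjusted p = 0.0518) or RLE scaling (0.0550) and without KO replicate 2 (0.0550), and Nap1l1 with edgeR under RLE scaling (0.0502). Of 24 S-phase genes none was called by limma, with a median of -0.03 and 4 at an unadjusted p under 0.05. The smallest p-values were those of Uhrf1, which recruits DNA methylation to new DNA (-0.17 ± 0.05, limma adjusted p = 0.0536), and Pola1, the catalytic subunit of the priming polymerase (-0.16 ± 0.05, limma adjusted p = 0.0651), and DESeq2 called both. With edgeR and TMM scaling Pola1 was called, and limma-voom called no S-phase gene. With upper-quartile scaling limma called both (adjusted p = 0.0229 for Uhrf1 and 0.0293 for Pola1), and with the replicate number as a block it called Uhrf1 (adjusted p = 0.0455). Each was also called by limma without 1 KO library, Uhrf1 without replicate 2 (adjusted p = 0.0235) and Pola1 without replicate 1 (0.0385).

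Replication-independent histone variants carry no cluster name, and most give polyadenylated mRNAs. Of 13 rows, 2 were called higher and 1 lower, with a median of 0.04, against 11.9% of all loci higher and 8.97% lower. AK043531+H2afy, which holds the macroH2A gene, had 51873 and 55670 in WT and 36332 and 34921 in KO (-0.59 ± 0.05, limma adjusted p = 0.00217). Aifm2+H2afy2, which holds the other macroH2A gene, had 738 and 703 in WT and 1076 and 1022 in KO (0.54 ± 0.10, limma adjusted p = 0.0150), and H2afj stood at 0.36 ± 0.07 (limma adjusted p = 0.0236). The calls of Aifm2+H2afy2 and H2afj were lost without WT replicate 1 (limma adjusted p of 0.0760 and 0.114) or WT replicate 2 (0.0934 and 0.126), and that of AK043531+H2afy was kept under every alternative run. The called macroH2A rows thus differed in opposite directions. A further row of H2afy2 alone had 6.48 and 12.2 in WT and 12.1 and 12.4 in KO, which overlap (0.42 ± 0.53, limma adjusted p = 0.607). The merged rows cannot be divided between their genes.

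The filter on level left out 7 histone loci. Hist1h4f, just outside it, had 31.1 and 3.66 in WT and 6.82 and 9.08 in KO, with WT replicate 1 again the highest. Hist2h2ab had 5.18 and 8.54 in WT and 9.10 and 14.0 in KO. Hist1h1t, the testis linker histone gene, had 9.07 and 2.44 in WT and 4.55 and 2.48 in KO. The other 4, the 2 loci named Hist1h2ap and 2 rows that merge Hist1h2br with other names, had 0 to 3 reads per library, which is within the 3 reads that a count of 0 allows. Just inside the filter stood Hist2h4, with 18.1 and 12.2 in WT and 8.34 and 10.7 in KO.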

How the data were processed

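RNA of 4 libraries, 2 WT and 2 KO, was analysed from 1 deposited table. Reads were aligned with STAR 2.3.1t to mm9, per the submitters' processing notes. Not given in the sources used here are the counter, annotation, strand setting, poly(A) selection, read length and handling of reads with several matches. Values deposited by the authors are a scaled signal, in which each library's read counts carry a factor of their own. Within each library 100% were whole multiples of the value of 1 read (within 0.001), which came to 1.30 and 1.22 (WT) and 0.758 and 0.825 (KO). The limit that a count of 0 allows, 3 reads, is 3.89 and 3.66 (WT) and 2.27 and 2.48 (KO) on that scale and covers counting error only. No column was left unused. Table starts count from 0 and were raised by 1.

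Of 22849 rows, 4893 join neighbouring loci with a comma and were kept out of the comparison, and 17956 are single loci. The 13764 reaching 10 or more in 2 or more libraries entered limma 3.58.1 (mean-variance trend, log2(value + 1), genotype only) in R 4.3.3, with Benjamini-Hochberg adjustment over all and a threshold of 0.05. The log scale understates changes of low loci. The edgeR 4.0.16 quasi-likelihood test on the recovered reads called 1619 loci higher and 1220 lower in KO, and DESeq2 1.42.0 was another alternative. The fit was tested on simulated data. No test was made over a list.

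The members and lists were chosen with earlier results of these data known. Values per library are given for called members, the most abundant member of each type in each cluster and members beside the level filter. From other lists, up to 4 called genes with the largest change are named, or the 2 with the smallest p where none was called. Genes outside this rule are identified where they appear. Stem-loops were searched in GENCODE M21 transcripts and motifs in RefSeq promoters (GRCm38.p6), both matched by name, since no mm9 genome was used.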

Additional observations from a re-analysis of the deposited data

Results flagged for a closer look

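Rows that join a histone locus with a neighbour were outside the comparison. Of the 16 such rows, 5 held more than the 3 reads that a count of 0 allows in at least 1 library. The row Hist2h2ab,Hist2h2ac had 4 and 9 reads in WT and 18 and 7 in KO. The row joining Rnf187 with the merged row of Hist3h2a (BC030470+AK009977+Hist3h2a+Trim17) had 2 and 0 reads in WT and 13 and 11 in KO. The highest library reached 6 reads for that merged row joined with Trim11, 5 for Hist1h4c,Hist1h4a and 4 for Hist1h2ae,Hist1h2bg. Over all 16 rows there were 13 and 17 reads in WT and 44 and 35 in KO, of libraries that were deeper in KO. No difference between the groups was tested for these rows.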

How the results depend on the processing

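The members' calls, 1 higher and 1 lower, were the same with log2(value + 10), without the level filter, with TMM or upper-quartile scaling, and with limma-voom, edgeR or DESeq2. Leaving out 1 library gave 0 to 2 members higher and 0 to 2 lower. Without WT replicate 1 or WT replicate 2 both were 0. Over all loci that gave 603 to 1714 higher and 266 to 1542 lower, against 1640 and 1235, and upper-quartile scaling gave 1901 lower. Leaving out 1 library gave medians of 0.14 to 0.41 for H1, 0.22 to 0.33 for H2A, 0.14 to 0.43 for H2B and 0.023 to 0.20 for Hist2. The same left medians that turned sign for H3 (-0.16 to 0.27), Hist1 (-0.04 to 0.37) and all members (-0.04 to 0.34). The H2A median was 0.27 with log2(value + 10) and 0.27 with upper-quartile scaling, and that of Hist2 was 0.13 with the latter. The Hist3 median was -0.99 when rows that merge other names were left out. Directions turned without 1 library for Hist1h4i (-0.33 to 0.58), Hist2h2be (-0.46 to 0.064) and the second Hist2h3c1 locus (-0.16 to 0.27), the last also with upper-quartile scaling (-0.00081). The causes were not tested. With the replicate number as a block, 1 member was higher and 1 lower, and 1906 and 1533 of all loci. No label says that a number marks a shared animal, batch or day, so the numbers were not taken as a pairing. Same-numbered libraries did share Xist and Y-linked levels, and the deviations of replicate 1 in WT and KO correlated at 0.25 over all loci and 0.35 over members. Of the genes named, the block changed the call of Uhrf1 (adjusted p = 0.0455). Depth limits the members under 100 normalised reads, whose median SE was 0.40.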
